A study of Mus musculus with 6 samples.

Results

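The ovary of the adult mouse was compared with the ovary of the mouse fetus, over 18193 genes measured on 1 expression array each. These 2 arrays are 2 of the 6 of a series of C57BL/6 mouse gonads, which covers both sexes at the same 3 ages: 15.5 days postcoitum, postnatal day 1 and 10 weeks. By its title, the study searched for genes that segregate chromosomes in meiosis I. C57BL/6 is an inbred laboratory strain, and the mice came from a commercial breeder with no treatment or engineered allele named. The fetal group is female gonads at 15.5 days postcoitum, and the adult group is ovaries of mice 10 weeks old. The array of ovaries at postnatal day 1 served to divide changes in time, and its own signals are given beside those of the 2 ages compared. No ovary array lies between 15.5 days postcoitum and that day. In the timing of changes below, birth therefore means postnatal day 1. How many animals gave RNA to a sample, whether they were pooled, and at which stage of the oestrous cycle adult ovaries were taken, is not stated in the labels. With 1 array per age there were no replicates, and no test was made. A gene is called higher or lower below when its adult and fetal signals differed by 4-fold or more.

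Female germ cells of the mouse enter meiosis together in the fetal ovary and pass through the pairing and recombination steps of prophase before birth. Around birth they arrest as oocytes inside primordial follicles, and after puberty follicles grow in waves, in which granulosa cells multiply around an oocyte that stores proteins and RNA for the embryo. The follicle that ovulates becomes a corpus luteum, a transient gland that makes progesterone. The fetal organ makes little or no steroid, and its supporting cells are pregranulosa cells. A whole-organ RNA sample mixes all of these cells, so fewer cells of a type and less RNA per cell cannot be told apart in any value below.

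Signals are array intensities after each array was scaled to the same 2% trimmed mean, and signals under a floor of 75.3, the median of all scaled signals, were raised to it. Where 1 array was at the floor, the ratio can only be bounded from below and is given as at least N-fold, and a list median that rests on such genes is bounded in the same way. In fetal ovary 12021 genes lay above the floor, in neonatal ovary 12661 and in adult ovary 12008. The scaling factors of these arrays were 0.913, 1.26 and 0.945. Gapdh, read at its 3′ and 5′ ends as a check of RNA integrity, gave a 3′ to 5′ ratio of 1.45 in fetal, 3.12 in neonatal and 1.32 in adult ovary, so the neonatal array stood apart from the other two. That of Actb was 3.78, 3.28 and 2.91. As a check of the labels, Xist, the RNA of the silenced X chromosome, had signals of 4085, 1950 and 3049, and the Y-linked Eif2s3y was at the floor on all 3 arrays. All 9 measured spermatid genes, among them the protamine genes Prm1 and Prm2, were at the floor on the fetal and adult arrays.

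The bases before the start of a few members are shown first, as examples of the windows whose letters are counted at the end of the results. They are the 250 bases upstream of the transcript start in RefSeq, build GRCm38.p6, on the strand of the gene. Capitals mark the letters CACGTG, a palindrome that many basic helix-loop-helix factors bind, and TCCCGC or its reverse complement GCGGGA, a core of E2F and E2F6 sites. Searched on both strands, CACGTG was in 8.10% of the 13327 upstream windows of genes above the floor and TCCCGC in 28.9%. Sycp3, Tex12, Hormad1 and Stag3, 4 genes of meiotic chromosomes that were lower in adult ovary, each hold CACGTG. Their windows are chr10:88459337-88459586 (plus strand), chr9:50561269-50561518 (minus strand), chr3:95559427-95559676 (plus strand) and chr5:138280259-138280508 (plus strand).
Sycp3: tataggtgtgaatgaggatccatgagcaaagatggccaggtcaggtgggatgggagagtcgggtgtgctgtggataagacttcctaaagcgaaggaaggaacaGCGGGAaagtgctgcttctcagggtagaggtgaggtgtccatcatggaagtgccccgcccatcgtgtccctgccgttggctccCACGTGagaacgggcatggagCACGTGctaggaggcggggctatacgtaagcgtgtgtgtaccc
Tex12: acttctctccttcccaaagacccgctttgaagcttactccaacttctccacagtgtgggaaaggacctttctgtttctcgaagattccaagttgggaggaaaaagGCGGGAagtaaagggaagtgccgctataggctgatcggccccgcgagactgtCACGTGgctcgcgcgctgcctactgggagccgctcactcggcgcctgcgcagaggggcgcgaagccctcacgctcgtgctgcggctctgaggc
Hormad1: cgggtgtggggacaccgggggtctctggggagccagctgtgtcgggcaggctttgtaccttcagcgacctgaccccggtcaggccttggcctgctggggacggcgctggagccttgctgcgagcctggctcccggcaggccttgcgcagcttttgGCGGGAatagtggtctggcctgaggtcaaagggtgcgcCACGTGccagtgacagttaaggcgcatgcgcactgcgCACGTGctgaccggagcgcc
Stag3: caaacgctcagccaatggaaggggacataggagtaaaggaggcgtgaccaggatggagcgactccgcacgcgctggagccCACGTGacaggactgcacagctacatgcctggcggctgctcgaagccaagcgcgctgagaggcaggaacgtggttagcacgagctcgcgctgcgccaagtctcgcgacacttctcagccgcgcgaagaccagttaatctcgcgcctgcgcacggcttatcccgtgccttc
From the other direction, Zp3 of the egg coat and Hsd3b1 of steroid synthesis, both higher in adult ovary, have windows at chr5:135979855-135980104 (plus strand) and chr3:98859795-98860044 (minus strand).
Zp3: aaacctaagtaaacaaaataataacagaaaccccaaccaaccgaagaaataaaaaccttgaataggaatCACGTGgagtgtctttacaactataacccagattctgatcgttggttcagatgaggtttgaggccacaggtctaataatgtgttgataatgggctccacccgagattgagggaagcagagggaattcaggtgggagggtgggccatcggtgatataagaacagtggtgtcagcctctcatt
Hsd3b1: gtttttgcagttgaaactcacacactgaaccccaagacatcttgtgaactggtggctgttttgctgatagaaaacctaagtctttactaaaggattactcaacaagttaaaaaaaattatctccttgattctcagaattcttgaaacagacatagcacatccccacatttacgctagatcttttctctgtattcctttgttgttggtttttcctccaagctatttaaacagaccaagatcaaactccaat
Zp3 holds CACGTG once and Hsd3b1 holds neither set of letters. Sycp3 and Hormad1 hold CACGTG at 2 places each. The count of CG dinucleotides was 12 for Sycp3, 20 for Tex12, 19 for Hormad1 and 26 for Stag3, against 5 for Zp3 and 1 for Hsd3b1.

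Over all genes, 368 of the 12900 that lay above the floor on either array were higher in adult ovary (2.85%) and 305 were lower (2.36%). The median log2 ratio of these 12900 genes was -0.05, and 84.1% of the 11129 genes above the floor on both arrays lay within 2-fold. Of the higher genes 45, and of the lower genes 32, were past 16-fold. When arrays were scaled to the RNAs added before hybridization in place of the trimmed mean, the split was 433 higher and 220 lower, and the median of all genes moved to 0.18. The only technical spread in the table, between probe sets of 1 gene, was 0.24 (robust SD of a log2 ratio, 4476 pairs), well under the log2 limit of 2, but it covers no variation between animals or arrays.

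**Figure D1:**
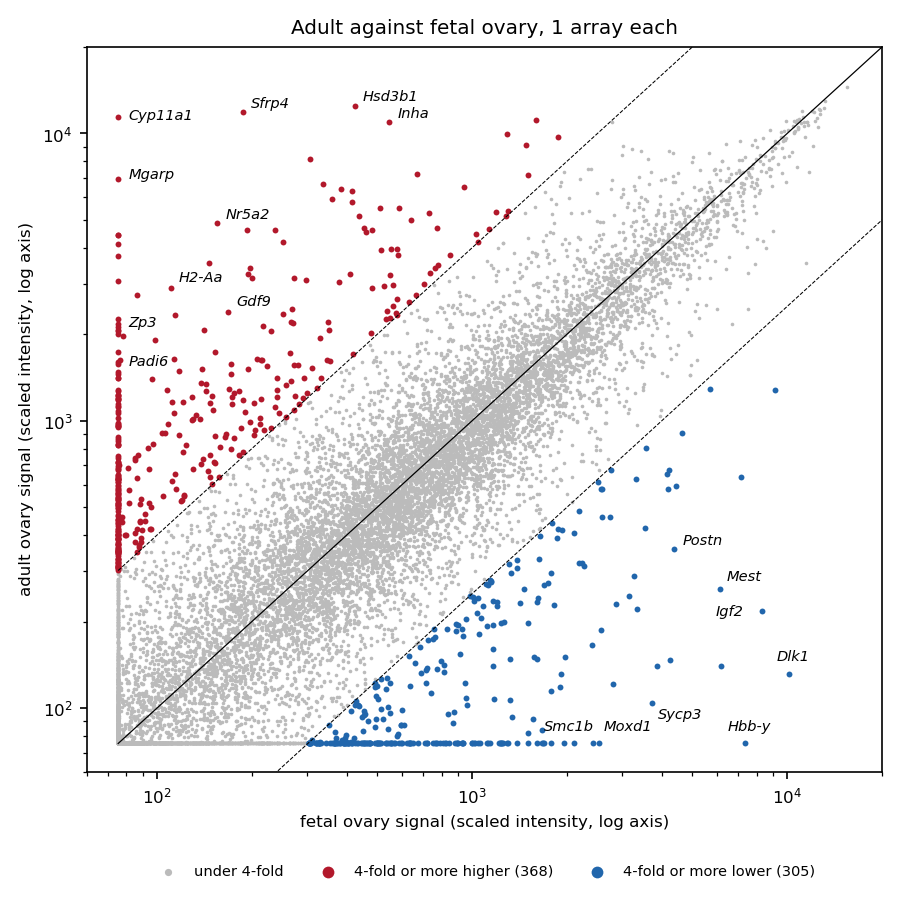
Signals of 18193 genes in fetal ovary (x axis) and adult ovary (y axis), both log axes of scaled intensity with a floor of 75.3, 1 array each. The solid line marks equal signals and the dashed lines 4-fold differences, beyond which lie 368 genes higher (red) and 305 lower (blue) in adult ovary; points on the left or bottom edge of the cloud are at the floor on 1 array.

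Genes of meiotic prophase formed the list with the largest share of lower members. Of 13 genes of the synaptonemal complex (the protein ladder that joins paired chromosomes), the chromosome axis and the meiotic cohesin rings, 12 were lower in adult ovary, where 2.36% of all genes were. Their median log2 ratio was -3.55. Sycp3, a filament protein of the axis, had signals of 3715 in fetal, 3051 in neonatal and 104 in adult ovary, and was 35.6-fold lower. Smc1b, a cohesin subunit of meiosis, had signals of 1962 in fetal and 1068 in neonatal ovary and was at the floor in the adult, at least 26.1-fold lower. Stag3, another cohesin subunit, had signals of 1287 and 311 before and just after birth and was at the floor in the adult, at least 17.1-fold lower. The fetal array was the highest for all 3 genes, and neonatal ovary lay between fetal and adult. Syce2, of the central element of the complex, had signals of 4637 in fetal, 3872 in neonatal and 907 in adult ovary and was the one called member with a clear adult signal (5.11-fold lower). Hormad2, an axis protein, was the member not called: its fetal signal of 93.9 was close to the floor, where it stood at both later ages.

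These members differed in how far their signals on postnatal day 1 lay below those of fetal ovary. At the floor already on postnatal day 1 were Hormad1, from 475 in fetal ovary, and 4930447C04Rik, a central element gene also known as Six6os1, from 897. Tex12, a central element protein, went from 1125 to 162 and Syce3 from 826 to 199 by that day. Sycp1, which forms the transverse filaments, had 720.4 and 468, and Syce1 had 1255 and 953. In all, 6 of the 12 lower members had passed the midpoint between the fetal and adult log2 signals by birth, and 6 had not. This split is uncertain, because 10 of the 13 genes on the list were at the floor in the adult, which sets their midpoint. Stag3 barely passed it, with a log2 change of -2.05 by birth out of -4.10. The split also rests on 1 neonatal array, whose Gapdh ratio stood apart.

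Steps around the synaptonemal complex moved the same way, where 2.36% of all genes were lower. Of 5 genes of meiotic entry 4 were lower (median -3.16), of 5 genes of telomere attachment 3 (median -2.27) and of 17 recombination genes 5 (median -1.39). Stra8, which retinoic acid induces to start meiosis, had a signal of 1046 in fetal ovary and was at the floor in neonatal and adult ovary, at least 13.9-fold lower in the adult. Meioc, which holds cells in prophase, and Spdya, an activator of CDK2 at meiotic telomeres, went from 673 and 639 to the floor by birth as well. Terb1, which tethers telomeres to the nuclear envelope, had signals of 750.3 in fetal and 299 in neonatal ovary and was at the floor in the adult. Among recombination genes, Dmc1, the strand exchange protein of meiosis, was at least 7.31-fold lower, Spo11, which cuts the DNA, at least 5.71-fold lower and Meiob, which coats single strands, at least 5.99-fold lower. Ccnb1ip1, which marks crossovers, and Tex11 were at least 4.33-fold and at least 4.1-fold lower. The other 12 were not called; Mlh3, a mismatch repair protein of crossovers, had signals of 176 in fetal, 170.1 in neonatal and 176 in adult ovary, and Tex15, which has roles in recombination and silencing, 2708 in fetal, 2327 in neonatal and 735 in adult ovary.

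Germ cell genes that outlast prophase were divided. Over all genes 2.36% were lower and 2.85% higher. Of 15 genes that germ cells of both sexes use, 7 were lower and 0 higher, with a median log2 ratio of -1.98 for adult over fetal ovary and of 0.02 for neonatal over fetal ovary. Ddx4, the germ cell RNA helicase also called Vasa, had signals of 1172 in fetal, 872 in neonatal and 107 in adult ovary (10.9-fold lower). Dazl, an RNA-binding protein that licenses germ cells for meiosis, had signals of 1916 in fetal, 893 in neonatal and 132 in adult ovary (14.6-fold lower). Mael, which acts in transposon silencing, had signals of 1510 in fetal and 1838 in neonatal ovary and was at the floor in the adult (at least 20.1-fold lower). For Ddx4 and Dazl adult ovary kept a signal above the floor, and for Mael it did not. Gtsf1, another gene of transposon silencing, had signals of 255 in fetal, 4152 in neonatal and 335 in adult ovary, so its adult and fetal values were close and the neonatal value stood far above both. Tex14, needed for bridges between germ cells, and Tdrd7 were within 2-fold. Of 10 pluripotency genes above the floor 0 were called, which is close to the share over all genes. Dppa5a, a marker of early germ cells, had signals of 595 in fetal, 822 in neonatal and 730.0 in adult ovary, and Nanog, Lin28a and 3 others were at the floor on both arrays.

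Genes of the oocyte itself went the other way, and some of them stood higher on postnatal day 1 than in the adult. Of 10 genes for the egg coat and secreted oocyte factors 7 were higher in adult ovary, against 2.85% of all genes. The median log2 ratio of the 10 was 3.0 for adult over fetal ovary and 1.12 for adult over neonatal ovary. Zp2, a protein of the zona pellucida, the coat of the egg, was at the floor in fetal ovary, at 1969 in neonatal and at 1479 in adult ovary (at least 19.6-fold higher). Zp3, the sperm receptor of that coat, was at the floor in fetal ovary and had signals of 1509 and 2126 (at least 28.2-fold higher). Gdf9, a growth factor from oocyte to granulosa cell, had signals of 168 in fetal, 1065 in neonatal and 2395 in adult ovary (14.3-fold higher). All 3 had passed the midpoint between the fetal and adult log2 signals by birth. Oosp1, an oocyte-secreted protein, was late: it was at the floor in fetal ovary, had 81.4 in neonatal ovary and 1219 in the adult (at least 16.2-fold higher). Bmp15, the partner of Gdf9, was at the floor before and after birth and had 207 in the adult, under the limit of 4. Kitl, which is made by granulosa cells for the oocyte, had signals of 3071 in fetal, 2216 in neonatal and 2393 in adult ovary.

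Of 30 genes whose products the egg stores for the embryo, 15 were higher and 0 lower (median 2.03). Among all genes, 2.85% were higher and 2.36% lower. For adult over neonatal ovary the median of these 30 was 0.41. Padi6 and Nlrp5, both of the complex beneath the egg membrane, were at the floor in fetal ovary. Padi6 stood at 3747 in neonatal and 1742 in adult ovary (at least 23.1-fold higher over the fetal array), and Nlrp5 had 2446 and 879 (at least 11.7-fold higher). Both were brighter in neonatal than in adult ovary. Zar1, needed at the first cleavage, had signals of 112 in fetal, 277 in neonatal and 1167 in adult ovary, and Bcl2l10, a survival factor of eggs, was at the floor, then 147, then 967, so these 2 were brightest in the adult. Obox5, a homeobox gene of eggs, was at the floor at both earlier ages and had 372 in adult ovary. Of the 15 higher genes, 9 had passed the midpoint by birth and 6 had not. Uchl1, a ubiquitin hydrolase, passed early, with signals of 348 in fetal, 3219 in neonatal and 2211 in adult ovary. Dppa3, which protects the maternal genome from demethylation, had 253 in fetal, 4911 in neonatal and 685 in adult ovary, under the limit for adult over fetal.

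Several transcription factors of the early oocyte were brightest in neonatal ovary. Of 9 measured, 0 were higher and 1, Figla, was lower in adult than in fetal ovary, against 2.85% and 2.36% of all genes. The median log2 ratio was -0.47 for adult over fetal ovary and 1.87 for neonatal over fetal ovary. Figla, which switches on the zona genes, had signals of 352 in fetal, 2405 in neonatal and 87 in adult ovary (4.05-fold lower in the adult). Nobox, needed for follicles to leave the primordial stage, was at the floor in fetal ovary and had 1556 in neonatal and 264 in adult ovary. Lhx8 was at the floor in fetal ovary and had 1254 and 148. For all 3, neonatal ovary was the high array, and the adult was close to the floor for Figla only. Foxo3, which restrains primordial follicles, had signals of 1113 in fetal, 1540 in neonatal and 1300 in adult ovary, all within 2-fold, and Taf4b, a subunit of the transcription machinery in germ cells, was dimmest in neonatal ovary, with 343 in fetal, 131 in neonatal and 218 in adult ovary.

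Granulosa cell genes were higher in 14 of 22 cases (median 2.14), where 2.85% of all genes were higher and 2.36% lower. Of these 14, 0 passed the midpoint by birth, against 17.9% of all higher genes. The median for neonatal over fetal ovary was 0.00. That is the value of Amh, Hsd17b1, Esr2 and Nap1l5, which were at the floor on both of these arrays, so it does not show an absence of change. Inha, the alpha subunit of inhibin, had signals of 545 in fetal, 1059 in neonatal and 10983 in adult ovary (20.1-fold higher in the adult). Inhba and Inhbb, the beta subunits that build activin and inhibin, were 10.7-fold and 16.5-fold higher, and both were dimmer in neonatal than in fetal ovary. Amh, the hormone of small growing follicles, was at the floor in fetal and neonatal ovary and had 1197 in the adult (at least 15.9-fold higher). Adult ovary was the high array for each of these hormone genes. Hsd17b1, which makes oestradiol from oestrone, was at the floor at both earlier ages and had 4124 in the adult (at least 54.8-fold higher). Nr5a2, a nuclear receptor needed for ovulation, had signals of 155 in fetal, 393 in neonatal and 4884 in adult ovary (31.5-fold higher), and 3 dimmer probe sets for it gave smaller ratios or stayed at the floor. Fshr, the receptor for follicle-stimulating hormone, was at the floor in fetal ovary, near it at 79 in neonatal ovary and 319 in the adult (at least 4.24-fold higher). Foxl2, a factor that keeps granulosa cell identity, had signals of 532 in fetal, 878 in neonatal and 2266 in adult ovary (4.26-fold higher). Amhr2, the receptor for Amh, had signals of 3878 in fetal, 3778 in neonatal and 5296 in adult ovary. Gpc3, a cell surface proteoglycan, was the 1 member that was lower (8.83-fold).

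The genes that specify the fetal ovary did not move as a block. Of 23 measured, 1 was higher (Foxl2) and 3 lower, against 2.85% and 2.36% of all genes, with a median of -0.54. Rspo1, the Wnt amplifier of ovary determination, had signals of 1616 in fetal, 1654 in neonatal and 241 in adult ovary (6.69-fold lower). Wnt4, its partner signal, had signals of 2124 in fetal, 1275 in neonatal and 2477 in adult ovary. The adult value of Rspo1 stood well below both earlier ages, while the 3 values of Wnt4 lay within 2-fold. Gng13 and Sp5 were 5.95-fold and at least 4.34-fold lower. Wt1 and Emx2, factors needed to form the gonad, had signals of 3289 in fetal, 3291 in neonatal and 1245 in adult ovary and of 1809 in fetal, 1413 in neonatal and 674 in adult ovary, below the limit of 4.

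A steroid gene, Cyp11a1, gave the largest ratio on the higher side. Over all genes 2.85% were higher and 2.36% lower. Of 18 genes of corpus luteum and theca, the steroid-making layer around the follicle, 12 were higher and 1, Adamts1, was lower (median 3.13). Their neonatal over fetal median was 0.00, which is the value of Cyp11a1, Cyp17a1 and Ptgfr, genes at the floor on both of these arrays. It therefore does not show that the list was unchanged by birth. Cyp11a1, which makes pregnenolone from cholesterol, was at the floor in fetal and neonatal ovary and had 11368 in the adult (at least 151-fold higher), with its 2 other probe sets at or close to the floor. Star, which carries cholesterol into mitochondria, was at the floor, then 77.1, then 2072 (at least 27.5-fold higher), and its 3 probe sets all passed the limit. Hsd3b1, which makes progesterone, had signals of 424 in fetal, 1615 in neonatal and 12501 in adult ovary (29.5-fold higher). Cyp17a1, which leads to androgens, was at the floor at both earlier ages and had 1999 (at least 26.6-fold higher). Hsd3b1 was the only one of the 4 that stood clearly above the floor before the adult.

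Genes for the life of the corpus luteum were among the higher ones, which made up 2.85% of all genes. Akr1c18, which inactivates progesterone as the gland regresses, was at the floor in fetal ovary and had 393 in neonatal and 4416 in adult ovary (at least 58.7-fold higher). Ptgfr, the receptor for the prostaglandin that starts regression, was at the floor at both earlier ages and had 2258 (at least 30.0-fold higher). Sfrp4, a secreted Wnt inhibitor, had signals of 187 in fetal, 906 in neonatal and 11851 in adult ovary and the largest ratio of all higher genes that were above the floor at both ages (63.2-fold). Scarb1, which takes up cholesterol from lipoproteins, had signals of 459 in fetal, 404 in neonatal and 4543 in adult ovary (9.9-fold higher). The synthesis of cholesterol itself differed less, with 2 of 20 genes higher, Sc5d (7.59-fold) and Hsd17b7 (6.63-fold), 0 lower and a median of 0.42. Dimmer probe sets of these 2 genes gave smaller ratios or stayed at the floor. Of 9 genes of prostaglandin and oxytocin signalling 5 were higher (median 3.05), among them Ptger2, a prostaglandin E2 receptor (at least 15-fold), and Oxtr, the oxytocin receptor (at least 8.3-fold). Adrenal cortex shares steroid genes with the ovary: 3 of 5 genes of that list were higher, Mrap, Nr5a1 and Hsd3b1, its summed signal was 1264 in fetal and 16440 in adult ovary, and its defining genes Cyp11b1 and Cyp11b2 were at the floor on both arrays.

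Named by size alone, several further genes accompanied these. Mgarp, a mitochondrial protein of steroid-making cells, was at the floor in fetal and neonatal ovary and had 6949 in the adult (at least 92.3-fold higher). Cnmd, chondromodulin, an inhibitor of vessel growth, was at the floor, then 94, then 4425 (at least 58.8-fold higher). Ephx2, an epoxide hydrolase, had signals of 305 in fetal, 664 in neonatal and 8124 in adult ovary (26.6-fold higher). All 3 reached their high level after birth. Hao2, a hydroxyacid oxidase, and Apoa4, an apolipoprotein, were higher by at least 40.7-fold and at least 28.8-fold. Nap1l5, an imprinted gene placed here with granulosa cell genes, was at the floor at both earlier ages and had 3737 (at least 49.6-fold higher). Efhd1, Acsbg1 (an acyl-CoA synthetase of steroid-making organs), Nupr1, Cemip, Pak3 and S100a4 were between 20.5-fold and 31.6-fold higher. The fetal signals of Cemip (77.7) and Pak3 (76.2) were next to the floor, which in effect bounds their ratios. Both genes also have a probe set that was at the floor in fetal and adult ovary.

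**Figure D2:**
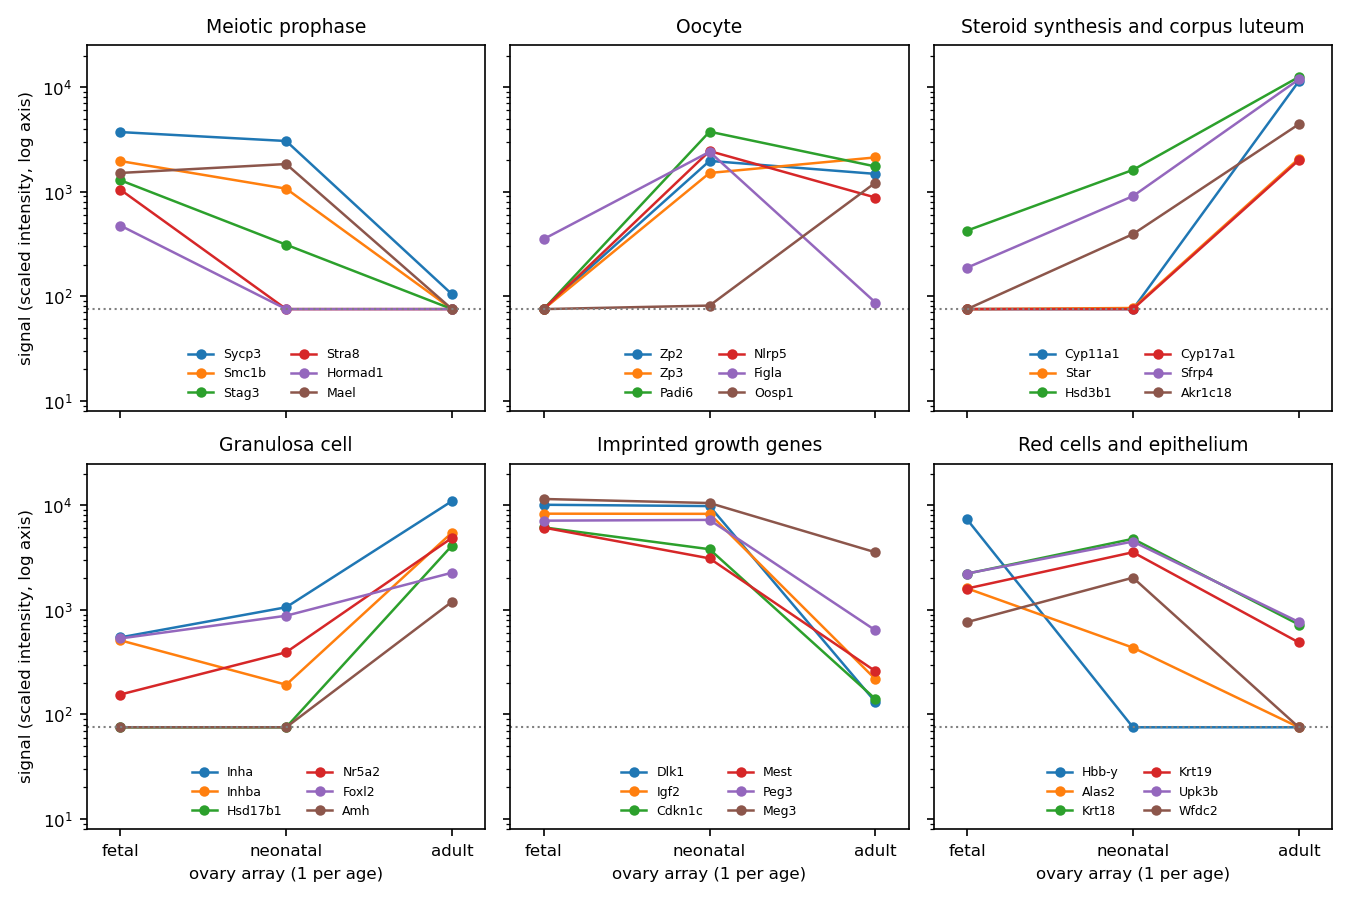
Signals (scaled intensity, log axis) in fetal, neonatal and adult ovary, 1 array per age, for 6 genes of each of 6 groups; the dotted line is the floor of 75.3. Lines join the 3 arrays and have no error bars. Meiotic genes descend, except that Mael rises slightly until birth and then falls. Padi6, Nlrp5 and Figla peak in neonatal ovary, Cyp11a1 and Amh leave the floor only in the adult, and Dlk1 and Igf2 are level until birth.

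Imprinted growth genes stood high on the lower side: Dlk1, Cdkn1c, Igf2 and Mest were 4 of the 12 lower genes with the largest ratios above the floor on both arrays. These genes are expressed from 1 parental copy, and several promote growth of the fetus. Of 19 above the floor 7 were lower and 0 higher, against 2.36% and 2.85% of all genes. The median log2 ratio of the 19 was -1.59 for adult over fetal and -0.13 for neonatal over fetal ovary. Dlk1, a Notch-like protein of immature cells, had signals of 10118 in fetal, 9828 in neonatal and 131 in adult ovary (76.9-fold lower), the largest fall of a gene with signal above the floor at both ages. Igf2, a fetal growth factor, had signals of 8314 in fetal, 8286 in neonatal and 217 in adult ovary (38.3-fold lower), with another, dim probe set at or near the floor throughout. Cdkn1c, a cell cycle inhibitor, had signals of 6153 in fetal, 3801 in neonatal and 140.4 in adult ovary (43.8-fold lower). For Dlk1 and Igf2 the fetal and neonatal arrays were nearly equal, and for Cdkn1c neonatal ovary was already dimmer. Mest, Peg3, Slc38a4 and Grb10 were 23.7-fold, 11.2-fold, 7.25-fold and 4.42-fold lower. Meg3, the noncoding RNA from the locus of Dlk1, had signals of 11492 in fetal, 10511 in neonatal and 3552 in adult ovary, and Plagl1, a zinc finger regulator of imprinted genes, 7995 in fetal, 8198 in neonatal and 4309 in adult ovary. Gnas and Sgce were within 2-fold.

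Other genes of fetal growth were lower too. Of 7 fetal RNA-binding and chromatin genes 4 were lower (median -2.73), against 2.36% of all genes. Igf2bp3, which binds the Igf2 mRNA, had signals of 1508 in fetal, 807 in neonatal and 82.1 in adult ovary (18.4-fold lower), and Hmga2, an architectural chromatin protein of fetal cells, had 2394 in fetal, 355 in neonatal and 166 in adult ovary (14.4-fold lower). Hmga2 fell mostly by postnatal day 1 and Igf2bp3 mostly after that day. Igf2bp1 and Sox11 were at the floor in the adult, at least 6.62-fold and at least 12.3-fold lower. Of the binding proteins of insulin-like growth factors, Igfbp3 was 11.3-fold lower and Igfbp7 5.21-fold higher, so this axis had members on both sides. Igf1 had signals of 3507 in fetal, 4806 in neonatal and 1342 in adult ovary.

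Proliferation genes were lower by small steps. All 32 had negative log2 ratios, with a median of -0.94 (-0.71 when scaled to the hybridization RNAs). Only Bub1, a spindle checkpoint kinase that meiosis also uses, passed the limit (4.62-fold lower). Its dimmer probe set, with a log2 ratio of -1.28, did not. This 1 gene of 32 is close to the 2.36% of all genes that were lower, while 2.85% of all genes were higher. Mki67, the Ki-67 antigen of cycling cells, had signals of 3491 in fetal, 3609 in neonatal and 1277 in adult ovary, and Top2a, a topoisomerase of dividing cells, had 3712 in fetal, 3070 in neonatal and 1700 in adult ovary. In both cases the adult value was under the other 2 by less than 4-fold. Among 16 cell cycle inhibitors and stress genes, Cdkn2b (at least 11-fold) and Gadd45a (7.81-fold) were higher and Cdkn1c, described above, was 43.8-fold lower.

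Patterning and mesenchyme genes of the fetal organ stood on the lower side. Of 22 Hox genes above the floor 5 were lower and 0 higher (median -1.34), against 2.36% and 2.85% of all genes. Hoxa9 had signals of 2102 in fetal and 1904 in neonatal ovary and was at the floor in the adult (at least 27.9-fold lower), and Hoxa10 and Hoxa11, factors of the reproductive tract, were at least 8.38-fold and at least 6.3-fold lower. Nr2f1, a nuclear receptor of embryonic mesenchyme, had signals of 1564 in fetal, 688 in neonatal and 91.7 in adult ovary (17-fold lower). Agtr2, an angiotensin receptor abundant in fetal tissue, had signals of 3874 in fetal, 4286 in neonatal and 139.6 in adult ovary (27.7-fold lower). Ptn, a heparin-binding growth factor, was 28.8-fold lower, Moxd1, a monooxygenase-like protein, at least 33.7-fold, Emilin3, a matrix glycoprotein, at least 32.2-fold, Ncam1, a cell adhesion molecule, 23.1-fold, and Gdf10, a growth factor of the TGF-beta family, 19.9-fold. Each of these 5 was still above the midpoint at birth. Crabp1, which binds retinoic acid in the cell, was at least 22.3-fold lower.

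Matrix genes were called in both directions, where 2.85% of all genes were higher and 2.36% lower. Of 17 collagen genes 2 were lower, Col14a1 (16.1-fold) and Col1a1 (6.25-fold). Another Col1a1 probe set, with 3815 in fetal and 1121 in adult ovary, was under the limit (log2 ratio -1.77). The median of the 17 was -0.68 for adult over fetal and 0.34 for neonatal over fetal ovary. Over the whole collagen family, 7 of 35 genes above the floor were lower and 2 were higher, Col4a4 (at least 6.24-fold) and Col6a4 (at least 15.7-fold), with a median of -0.89. Of 24 other matrix genes 4 were lower and 3 higher. Postn, periostin of growing connective tissue, had signals of 4376 in fetal, 7770 in neonatal and 357 in adult ovary (12.3-fold lower), and Eln, elastin, had 1696 in fetal, 4608 in neonatal and 268 in adult ovary (6.33-fold lower). Tnc, tenascin C of remodelling tissue, had signals of 296 in fetal, 351 in neonatal and 3092 in adult ovary (10.4-fold higher), and Thbs1, an inhibitor of vessel growth, was 8.52-fold higher. The neonatal array was the highest for Postn and Eln, and the adult array for Tnc. All 12 ADAMTS proteases above the floor had negative ratios, with 4 lower (median -1.14).

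Genes of signalling pathways were also called in both directions, except for Notch. The share over all genes was 2.85% higher and 2.36% lower, and 1 higher Wnt gene of 26 is close to it. Of 26 Wnt genes 1 was higher (Sfrp4) and 4 were lower, among them Rspo3 (9.4-fold) and the antagonist Dkk2 (at least 5.08-fold). Of 12 Hedgehog genes the ligands Dhh (at least 8.59-fold) and Ihh (at least 4.19-fold) were higher and the transducer Gli3 (6.13-fold) and co-receptor Cdon (4.43-fold) lower. Ptch1, the receptor that Hedgehog signals induce, had signals of 897 in fetal, 708 in neonatal and 2470 in adult ovary. Of 13 Notch genes 0 were called. Of 33 genes of the TGF-beta family 5 were higher, 4 of them inhibin subunits or Gdf9 and 1 the receptor Bmpr1b (6.99-fold), and Bmp5 was lower (at least 5.4-fold). Among 27 steroid and nuclear receptors, Esr2, the oestrogen receptor of granulosa cells, was at the floor at both earlier ages and had 388 (at least 5.15-fold higher), while Esr1 had signals of 1707 in fetal, 2744 in neonatal and 1335 in adult ovary.

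**Figure D3:**
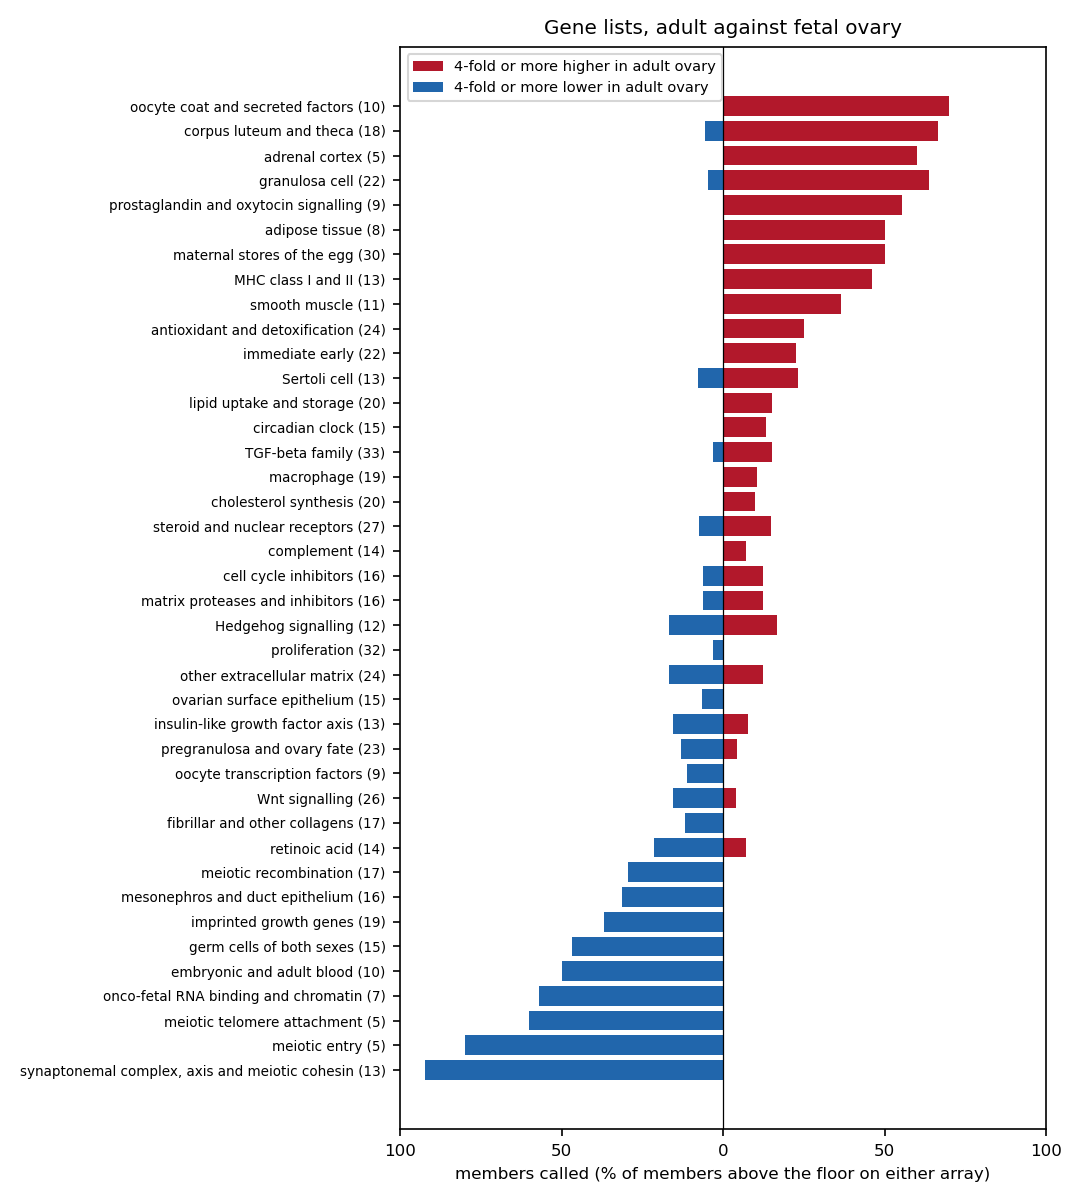
Share of each gene list's members that were 4-fold or more higher (red, to the right) or lower (blue, to the left) in adult ovary, as a percentage of members above the floor on either array, whose number stands in parentheses. Lists with at least 5 such members and 1 called member are shown; 12 of 13 synaptonemal complex, axis and cohesin genes lie on the lower side and 7 of 10 oocyte coat genes on the higher side, against 2.36% and 2.85% of all genes.

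Genes of other cell types also differed between the samples, where 2.85% of all genes were higher and 2.36% lower. Among 13 genes of MHC class I and II and of antigen processing, 6 were higher and 0 lower (median 1.93). The 6 were H2-Aa, H2-Eb1, Cd74, Tap2, Psmb8 and Psmb9. The summed signal of the list was 9764 in fetal and 29905 in adult ovary. H2-Aa, a class II chain, had signals of 110.5 in fetal, 370.2 in neonatal and 2901 in adult ovary (26.3-fold higher; its 4 probe sets gave log2 ratios from 1.53 to 4.71), and Cd74, the invariant chain, had 197 in fetal, 408 in neonatal and 3394 in adult ovary (17.2-fold higher). Of 19 macrophage genes 2 were higher, Lyz2 (4.44-fold) and Mpeg1 (5.02-fold), with a median of 1.05, whereas Adgre1, which encodes F4/80, had signals of 367 in fetal, 382 in neonatal and 405 in adult ovary. The summed macrophage signal was 10275 in fetal and 20804 in adult ovary. None of 6 lymphocyte genes was called, and Cd3e, Cd4 and Cd79a were at the floor on both arrays. Of 17 endothelium genes 0 were called, and the median was -0.27. Smooth muscle genes were higher in 4 of 11 cases (median 1.40), and 3 of these passed the midpoint by birth, such as Myh11, smooth muscle myosin, with signals of 118 in fetal, 620.0 in neonatal and 1487 in adult ovary (12.6-fold higher).

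Red cell genes were lower in 5 of 10 cases (median -1.71), against 2.36% of all genes. The summed signal of the 10 was 15425 in fetal and 1840.5 in adult ovary. Hbb-y and Hba-x, the embryonic globin genes, had fetal signals of 7328 and 1231 and were at the floor in neonatal and adult ovary, at least 97.3-fold and at least 16.4-fold lower. Slc4a1, the anion exchanger of red cells, had 1779 in fetal and 249 in neonatal ovary and was at the floor in the adult. Hbb-y had the largest fall between fetal and neonatal ovary among the lower genes. Afp, alpha-fetoprotein, had signals of 1670 and 2807 in fetal and neonatal ovary and was at the floor in the adult (at least 22.2-fold lower; 2 of its 5 probe sets were at the floor throughout).

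Genes listed for tissue next to the ovary had different signals on the 3 arrays. Their counts stand beside 2.36% lower and 2.85% higher over all genes. Of 16 genes of mesonephros and duct epithelium 5 were lower (median -1.67 for adult over fetal, 0.56 for neonatal over fetal ovary), and their summed signal was 15483 in fetal, 25880 in neonatal and 4662 in adult ovary. Cdh16, a cadherin of kidney and duct epithelium, had signals of 898 and 1180 and was at the floor in the adult (at least 11.9-fold lower). Wfdc2, a secreted epithelial protein, had 763 and 2030 and was at the floor in the adult (at least 10.1-fold lower). The other 3 are Hox genes, Hoxa9, Hoxa10 and Hoxa11, which mesenchyme also expresses. Of 15 genes of the ovarian surface epithelium 1 was lower, Podxl (4.42-fold), and the median was -1.40 for adult over fetal and 0.97 for neonatal over fetal ovary. Krt18, a keratin of simple epithelia, had signals of 2218 in fetal, 4779 in neonatal and 723 in adult ovary. Of 4 oviduct genes above the floor 2 were lower and 0 higher, and the defining genes Ovgp1 and Foxj1 were at the floor on both arrays. For fat, 4 of 8 genes were higher, Plin4, Pparg, Cebpa and Cd36 (summed signal 2988 in fetal and 6838 in adult ovary), and the defining genes Adipoq, Lep, Retn and Cidec were at the floor. Whether such tissue was in the samples, and its part in the other results, was not tested.

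Among genes of metabolism and stress, those called were on the higher side. Of 23 oxidative phosphorylation genes 0 were called (median 0.07). Of 11 housekeeping genes 0 were called too (median -0.12, or 0.12 when scaled to the hybridization RNAs). Counts of 0 in lists of this size are close to the share over all genes, 2.85% higher and 2.36% lower. Of 24 antioxidant and detoxification genes 6 were higher and 0 lower (median 1.15). Gpx3, the secreted glutathione peroxidase, had signals of 383 in fetal, 784 in neonatal and 6391 in adult ovary (16.7-fold higher), and Ephx1, an epoxide hydrolase, 237 in fetal, 720.1 in neonatal and 4603 in adult ovary (19.4-fold higher). Mt1, a metallothionein, was 6.12-fold higher. Of 22 immediate early genes, which respond to hormones and to handling of tissue, 5 were higher. Among them Egr1 had signals of 526 in fetal, 3910 in neonatal and 2935 in adult ovary and Fos 122 in fetal, 875 in neonatal and 549.8 in adult ovary, with neonatal ovary the highest array for both.

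Most of the difference between fetal and adult ovary arose after birth. Of the 368 higher genes 66 (17.9%) and of the 305 lower genes 61 (20%) had passed the midpoint by postnatal day 1. The median called gene had made 18.3% of its log2 change by then on the higher side and 19.2% on the lower side. Compared directly, 138 genes were 4-fold or more higher in neonatal than in fetal ovary (1.05% of 13086) and 42 lower (0.321%), while 41 of the 368 and 35 of the 305 genes had reached that size. These shares depended on the scaling: from signals as deposited, 11.6% of higher and 33.0% of lower genes were early, and scaled to the hybridization RNAs 25.2% and 15.5%. The neonatal array had the highest scaling factor and the highest Gapdh 3′ to 5′ ratio, and their part in these shares was not tested.

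Among genes called in adult over fetal ovary, the largest changes by birth were mostly in oocyte genes on the higher side and in red cell and germ cell genes on the lower side. On the higher side, the 8 called genes with the largest neonatal change were Padi6, Nlrp5, Zp2, Nlrp4f, Zp3 and Nlrp14 of the oocyte, together with Xdh and Bzw2. Xdh, xanthine dehydrogenase, was at the floor in fetal ovary and had 1911 in neonatal and 681 in adult ovary (at least 9.05-fold higher). Bzw2 had signals of 172 in fetal, 13269 in neonatal and 1574 in adult ovary from its brightest probe set, but another probe set gave 806, 381 and 435, so the direction for this gene depended on the probe set. On the lower side they were the globins Hbb-y and Hba-x, Stra8, 4930447C04Rik, Tex101 and M1ap of germ cells, together with Ugt8a and Ppp1r3c. Tex101, a germ cell surface protein, had 1119 in fetal and 76.7 in neonatal ovary and was at the floor in the adult. M1ap, a meiosis gene, went from 934 to the floor by birth (at least 12.4-fold lower in the adult). In all, 17 higher genes, among them Bzw2, Padi6, Nlrp5, Zp2, Xdh and Nlrp4f, and 6 lower genes lay beyond the adult value in neonatal ovary, and for 45 higher and 71 lower genes neonatal ovary lay outside the fetal value on the opposite side.

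**Figure D4:**
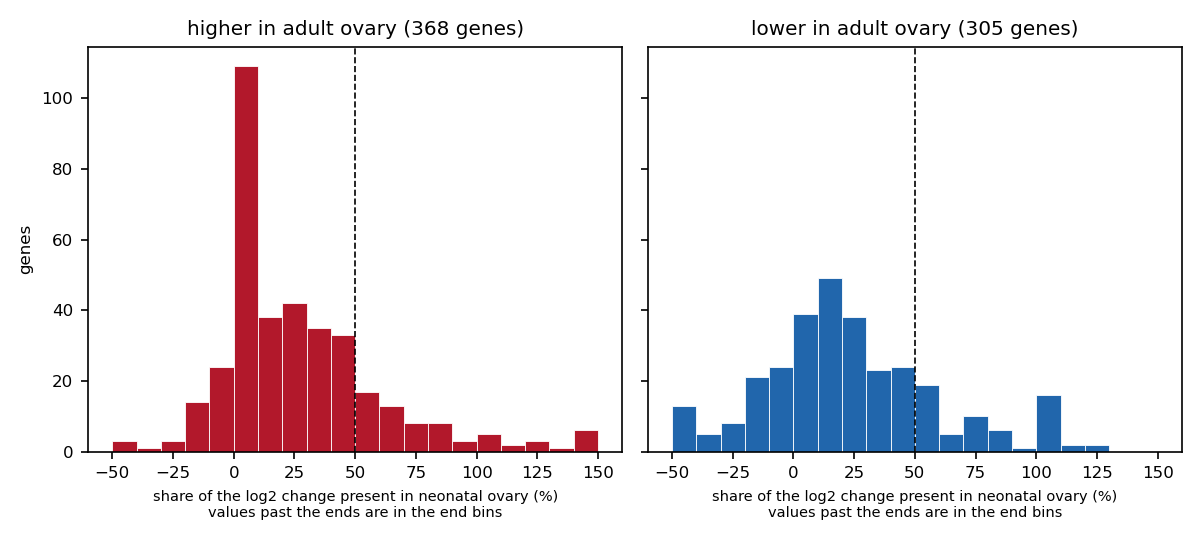
Histograms of the share of each called gene's log2 change between fetal and adult ovary that was present in neonatal ovary (x axis, %; y axis, number of genes), for 368 higher and 305 lower genes. The dashed line is the midpoint; 66 higher and 61 lower genes lie beyond it, and values under 0 are genes whose neonatal signal lay on the far side of the fetal one.

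The upstream windows were then counted over these groups, as a description of sequence. CACGTG was in 8 of 16 windows of the synaptonemal complex, axis and cohesin list (50%), from 7 of its 13 genes, where overlapping windows of 1 gene were counted separately; the share was 8.10% over all genes above the floor. It was in 20.8% of 48 windows of lower genes that changed early, 8.30% of those that changed late, and 6.94% of windows of higher genes. The share for early lower genes is no separate result. Its 10 windows with CACGTG include those of Tex12, 4930447C04Rik, Stag3 and Hormad1 from the meiotic list, and Hormad1 was counted with 2 overlapping windows. TCCCGC was in 50% of the windows of that meiotic list, 31.1% of windows of lower genes and 18.2% of windows of higher genes, against 28.9% over all. Windows of higher genes held fewer CG dinucleotides, with a median of 7 against 15 over all and 13 for lower genes, and their median GC content was 55.6% against 59.6% for all and for lower genes. AAGGTCA, letters that NR5A receptors read, was in 4.62% of windows of higher genes and 2.84% over all, and in none of the 15 windows of the corpus luteum and theca list. TAATTG, read by homeodomain factors, was in 6.65% and 4.33%. Of the called genes, 281 higher and 225 lower ones had a window.

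By chromosome, 25 of the 305 lower genes (8.20%) and 8 of the 368 higher genes (2.17%) are X-linked, where 444 of the genes above the floor (3.44%) are. Among the lower ones are Agtr2, Alas2, an enzyme of haem synthesis in red cells (at least 21.3-fold lower), and Taf7l, a germ cell partner of the transcription machinery, which had signals of 1687 in fetal and 390.2 in neonatal ovary and was at the floor in the adult (at least 22.4-fold lower). Gene names rest on single probe sets in part: 183 higher and 163 lower genes have several, of which 68 and 50 had all of them past 2-fold in the same direction, and 0 had one past 2-fold in the opposite direction.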

How the data were processed

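The deposited table, made by the authors, holds 1 linear intensity per probe set and array, for 45101 probe sets and 6 arrays of biotin-labelled RNA. The submitters' processing notes list GCOS, version 1, and give it no role. Not given in the sources used here are background correction, probe summary and scaling, so how far dim ratios are compressed is unknown, and precision is limited by having 1 array per group. Each array was multiplied to the same 2% trimmed mean, signals under the median of all scaled signals (75.3) were raised to it, and a gene took the values of its brightest probe set, by mean signal, among those with 1 gene symbol. The platform annotation gave 34945 probe sets 1 symbol and 932 several, and left 9211 unnamed; of the 18193 genes, 18032 are in the RefSeq table of GRCm38.p6, and 14452 have a promoter entry. Genes were called at a ratio of 4 and were early if neonatal ovary lay past the log2 midpoint. Where the fetal or adult array was at the floor, the floor set that midpoint. There was no test. Of 858 genes in 50 lists, 770 were measured, and the others are not analysed here. Members and lists were chosen with earlier results of these data known. Named genes are, per direction, the 12 with the largest ratio above the floor on both arrays, the 12 brightest of those whose other array was at the floor, the 8 with the largest neonatal change, and members of the lists and of 22 families defined by symbol. Alternatives were 4 other scalings, 4 other floors, the mean of probe sets, probe sets without marks of cross-hybridization, other ratio limits and other definitions of early. The steps were tested on simulated data. Python 3.11.15, numpy 2.4.6, pandas 2.3.3, scipy 1.17.1 and matplotlib 3.10.9 were used.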

Additional observations from a re-analysis of the deposited data

Results flagged for a closer look

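For 12 gene lists the adult over fetal change ran in opposite directions in ovary and testis, with a median log2 ratio past 1 in each. Each side is 1 pair of arrays, and the difference between the sexes was not tested.

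Meiotic lists were lower in adult ovary and higher in adult testis, where spermatocytes pass through meiosis after birth. The median log2 ratio was -3.55 in ovary and 3.39 in testis for the synaptonemal complex, axis and meiotic cohesin, -1.39 and 1.09 for meiotic recombination, -2.27 and 2.36 for telomere attachment, and -3.16 and 1.39 for meiotic entry. Germ cells of both sexes had -1.98 in ovary (15 members) and 1.41 in testis (18 members). The oviduct list had -2.37 over 4 members in ovary and 2.21 over 9 members in testis. Each median is over the members above the floor in that sex, so the gene sets differ, most of all for this list.

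Lists of steroid-making and stromal cells ran the other way. The median was 3.13 in ovary and -2.09 in testis for corpus luteum and theca, 3.05 and -1.22 for prostaglandin and oxytocin signalling, 2.19 and -1.22 for adrenal cortex, and 1.40 and -2.13 for smooth muscle. Complement genes had 1.22 in ovary and -1.47 in testis, and macrophage genes 1.05 and -1.01. Housekeeping genes, for comparison, had -0.12 in ovary and -1.61 in testis. The testis medians of complement, macrophage, prostaglandin and oxytocin, and adrenal cortex genes were thus no lower than that of housekeeping genes. For these lists the testis values show no fall particular to the list.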

How the results depend on the processing

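No paired analysis was possible because each group has 1 array. Against 368 genes 4-fold or more higher in adult ovary, there were 126 with the floor at the 75th percentile and 1193 and 134 with ratios of 2 and 8. Against 305 lower genes there were 537 with the floor at the 25th percentile, 75 at the 75th, and 1210 and 93 with ratios of 2 and 8. The share of higher genes that changed early, 17.9%, was 11.6% from signals as deposited, 25.2% scaled to the hybridization RNAs, 26.4% for a floor at the 25th percentile, 23.7% when 16 was added without a floor, and 11.1% when early meant 4-fold by birth. The share of lower genes that changed early, 20%, was 33.0%, 15.5%, 12% with the floor at the 75th percentile, 11.5% when early meant 4-fold by birth, and 13.3% over the 165 genes above the floor on all 3 arrays. The log2 ratio of Bzw2 reversed to -0.89 without probe sets marked for cross-hybridization. The causes were not tested. All 23 list medians of 1 or more in size kept their sign in every setting, and 43 of all 49 did. Scaling to the hybridization RNAs moved the median of all genes from -0.05 to 0.18, and 179 of 195 named called genes stayed 4-fold under it, against 99 with the floor at the 75th percentile. Signals near the floor limit what can be seen of dim genes.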

Other observations

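The families below were chosen after their values were seen, and their counts stand beside 2.85% higher and 2.36% lower over all genes. Interferon-induced genes of the Ifit, Ifi, Gbp, Irgm and Oasl families were higher in 10 of 21 cases above the floor and lower in 0, with a median log2 ratio of 1.49. Gbp2, a guanylate-binding protein of host defence, had signals of 150.2 in fetal, 790.4 in neonatal and 1093 in adult ovary (7.28-fold higher). Ifi47 was at the floor in fetal ovary and had 178 in neonatal and 626 in adult ovary (at least 8.32-fold higher). For both, neonatal ovary lay between fetal and adult ovary.

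Some members of gene families of the egg that have many similar copies were higher in adult ovary. Of 9 F-box genes named Fbxw14 to Fbxw28, 5 were higher (median 2.23), and Fbxw24 was at the floor in fetal ovary, 148 in neonatal and 973 in adult ovary. Of 5 Obox and Oog genes 4 were higher, and Obox2 was at the floor at both earlier ages and had 961 in the adult (at least 12.8-fold higher). Of 6 Pramel genes 3 were higher. None of these 3 families had a lower member, but Obox6 had a log2 ratio of -0.36 and Pramel12 of -0.26. Probes for such copies can share RNA, so single members are uncertain.

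Among guidance molecules, known for steering axons and cell sheets, more members were lower than higher. Of 18 Eph receptors and ephrins 6 were lower and 0 higher (median -1.02), among them Epha7 with signals of 740.2 in fetal, 360.3 in neonatal and 113 in adult ovary (6.55-fold lower). Of 15 netrins, slits, their receptors and Flrt genes 5 were lower and 1 was higher (median -0.42, with 4 members positive). Slit2 had signals of 2566 in fetal, 2023 in neonatal and 187 in adult ovary (13.8-fold lower), and Ntn4, a netrin of basement membranes, went the other way with 104 in fetal, 229.7 in neonatal and 909 in adult ovary (8.78-fold higher). Of 3 neurofilament genes, which mark nerve fibres, 2 were lower, and both were brightest in neonatal ovary: Nefm had signals of 900.1 in fetal and 5651 in neonatal ovary and was at the floor in the adult (at least 12-fold lower). Of 10 Meis, Pbx and Tbx transcription factors 3 were lower and 0 higher (median -0.78). Meis1 and Meis2, homeobox partners of Hox proteins, were 7.28-fold and 8.37-fold lower. Tbx2 was 4.16-fold lower, while Meis3 had signals of 164 in fetal, 106 in neonatal and 107 in adult ovary and Tbx3 657 in fetal, 436 in neonatal and 769.8 in adult ovary.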
